A study of Homo sapiens with 72 samples.

Results

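The genes described here are 10 genes of the unfolded protein response, chosen by name from the ATF6 and XBP1 arms of that response: HSPA5, HSP90B1, DNAJB9, DNAJC3, SDF2L1, PDIA4, CALR, HERPUD1, XBP1 and CRELD2. They are 10 of the 60371 genes in each library, and all 10 passed the filter on low counts in each comparison described below. Population RNA-seq was carried out on 72 wells of U2OS cells, a human osteosarcoma cell line, collected 12 h after treatment. The groups were 18 wells with DMSO, the solvent, and 3 wells at each of 3 doses (100, 1000 and 10000 nM) of 6 compounds: triptolide, homoharringtonine, nilotinib, pyrazolanthrone, miglitol and MK-2206. All groups were cells of the same line, grown in 24-well plates with serum and no other treatment named in the labels. Nothing in the labels says that wells of a group came from separate cultures, so the p-values measure only the spread between wells, which may be technical.

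The unfolded protein response is started by sensor proteins in the membrane of the endoplasmic reticulum when unfolded protein builds up in its lumen. ATF6 is cut in the Golgi and releases a transcription factor, IRE1 (gene ERN1) splices XBP1 mRNA so that it encodes an active transcription factor, and PERK (gene EIF2AK3) phosphorylates eIF2alpha and so raises ATF4. ATF6 and spliced XBP1 raise the genes for chaperones, disulfide isomerases and degradation factors of the endoplasmic reticulum. Of the compounds, triptolide blocks transcription through TFIIH, homoharringtonine blocks the elongation step of translation, nilotinib inhibits the ABL kinases, pyrazolanthrone inhibits JNK kinases, miglitol inhibits alpha-glucosidases and MK-2206 inhibits AKT. The counts used here are per gene and do not separate spliced from unspliced XBP1 mRNA.

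The DNA element that ATF6 reads together with NF-Y, the endoplasmic reticulum stress element (ERSE), was searched in the 250 bases before the RefSeq start of each gene (GRCh38.p14, both strands). Searched as CCAAT, then 9 bases of any kind, then CCACG, it was found before 5 of the 10 genes, and before 22 of 27305 promoters in all (0.0806%). The related ERSE-II, searched as ATTGG, then 1 base of any kind, then CCACG, was found before 2 of the 10, against 14 promoters in all (0.0513%). The 8 matches are shown because 7 of the 10 genes carry one; each is printed with its flanks, 30 bases in all, in the direction in which the element reads, with the element in capitals.
HSPA5 (chr9:125241385-125241414, minus strand, 66 to 48 bases before the start): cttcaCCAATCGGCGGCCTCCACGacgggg
HSP90B1 (chr12:103930211-103930240, plus strand, 194 to 176 bases before the start): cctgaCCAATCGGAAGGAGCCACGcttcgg
HSP90B1 (chr12:103930316-103930345, minus strand, opposite to the gene): aacccaCCAATCGCGCCGCACCACGcaccc
CALR (chr19:12938379-12938408, minus strand, opposite to the gene): caccgaCCAATGATGGTCGACCACGcgtgg
XBP1 (chr22:28800597-28800626, minus strand, in the direction of the gene): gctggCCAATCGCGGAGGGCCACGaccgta
CRELD2 (chr22:49918549-49918578, minus strand, opposite to the gene): tatggcCCAATCCGAGTTCGCCACGagagg
SDF2L1, ERSE-II (chr22:21642105-21642134, minus strand, opposite to the gene): gagggttttgATTGGTCCACGcttccgagg
HERPUD1, ERSE-II (chr16:56932016-56932045, plus strand, in the direction of the gene): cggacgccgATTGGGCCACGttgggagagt

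DNAJB9, DNAJC3 and PDIA4 had neither element in this window. The core of the element read by spliced XBP1, TGACGTG, was found before 0 of the 10 genes and before 466 promoters in all (1.71%). A CCAAT box, which lies inside both elements, was found before 10 of the 10 and before 9021 promoters in all (33.0%). A match is a run of letters and does not show that a factor bound there. The absence of a match says only that these letters are not in this window. The 10 genes were chosen by name from the ATF6 and XBP1 arms. Their counts of ERSE and ERSE-II beside all promoters are therefore a description and not a test. Longer stretches follow for HSPA5, HERPUD1 and XBP1, the 3 genes that were called higher with both nilotinib and pyrazolanthrone; each is the part of the window that overlaps no annotated exon, in the direction of the gene, with the element in capitals.
HSPA5 (chr9:125241383-125241593, minus strand): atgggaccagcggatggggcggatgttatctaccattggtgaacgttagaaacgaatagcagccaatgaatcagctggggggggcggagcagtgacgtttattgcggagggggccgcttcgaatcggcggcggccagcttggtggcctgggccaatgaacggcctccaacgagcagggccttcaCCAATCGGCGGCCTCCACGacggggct
HERPUD1 (chr16:56931892-56932141, plus strand): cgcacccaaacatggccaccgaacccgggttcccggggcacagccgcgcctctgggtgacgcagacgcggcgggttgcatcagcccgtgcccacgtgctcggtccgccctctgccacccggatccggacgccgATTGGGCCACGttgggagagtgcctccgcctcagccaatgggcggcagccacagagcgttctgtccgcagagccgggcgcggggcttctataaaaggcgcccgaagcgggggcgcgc
XBP1 (chr22:28800598-28800682, minus strand): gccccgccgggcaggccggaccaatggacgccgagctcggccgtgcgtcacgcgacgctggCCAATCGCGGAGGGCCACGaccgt

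Depth ranged from 70767 to 68296309 expected counts per well, with a median of 38.4 mil. Triptolide at 100 nM replicate 2 held 70767 counts, DMSO replicate 10 held 460014 and triptolide at 1000 nM replicate 1 held 9628355, the 3 libraries under 10 mil. In the shallowest library 3 counts are worth 42.4 CPM (counts per mil), so HERPUD1 (0 counts), DNAJB9 (1 count), XBP1 (2 counts) and SDF2L1 (2 counts) were at or under that limit there. The 10 genes took 0.297% to 0.351% of all counts in the DMSO wells, 0.477% to 0.491% with nilotinib at 10000 nM, 0.380% to 0.398% with triptolide at 10000 nM and 0.182% to 0.190% with homoharringtonine at 10000 nM. Of the markers of osteoblasts and mesenchyme, VIM (median 1868 TPM) and COL1A1 (452 TPM) were high in the DMSO wells, RUNX2, ALPL and SPP1 were lower (3.81, 3.79 and 12.0 TPM), and COL1A2, SP7, BGLAP and IBSP were at or below 0.425 TPM. In bulk samples fewer cells and less RNA per cell cannot be told apart.

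In the DMSO wells, CALR, the calcium-binding lectin chaperone, had the highest level per length, with 819, 1101 and 1459 TPM as its lowest, median and highest well. HSPA5 (BiP), the Hsp70 chaperone that also holds the sensors inactive, followed with 249, 330 and 450 TPM, and HSP90B1 (GRP94), the Hsp90 of the endoplasmic reticulum, with 175, 282 and 461 TPM. CALR exceeded HSPA5 in 18 of 18 wells, and HSPA5 exceeded HSP90B1 in 16 of 18. SDF2L1, a co-factor of HSPA5 that limits aggregation (median 110 TPM), HERPUD1, a membrane protein of endoplasmic reticulum-associated degradation (95.6 TPM), CRELD2, a secreted calcium-binding protein (87.9 TPM), XBP1 (81.7 TPM) and PDIA4 (ERp72), a disulfide isomerase (75.6 TPM), formed a middle group. Neighbours in that group were in the same order in 9 to 13 of 18 wells, so their levels did not separate beyond the spread between wells. The J-domain co-chaperones DNAJC3 (p58IPK, 9.08 TPM) and DNAJB9 (ERdj4, 6.76 TPM) were lowest, and PDIA4 exceeded DNAJC3 in 18 of 18 wells. HERPUD1 reached 266 TPM in the shallow DMSO replicate 10.

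Levels between wells are given from here on as CPM scaled by TMM, and differences as log2 fold changes against the 18 DMSO wells, with their standard errors, from edgeR's quasi-likelihood test. A gene was called at an adjusted p under 0.05 over all genes tested. All 18 comparisons share the same DMSO wells.

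**Figure D1:**
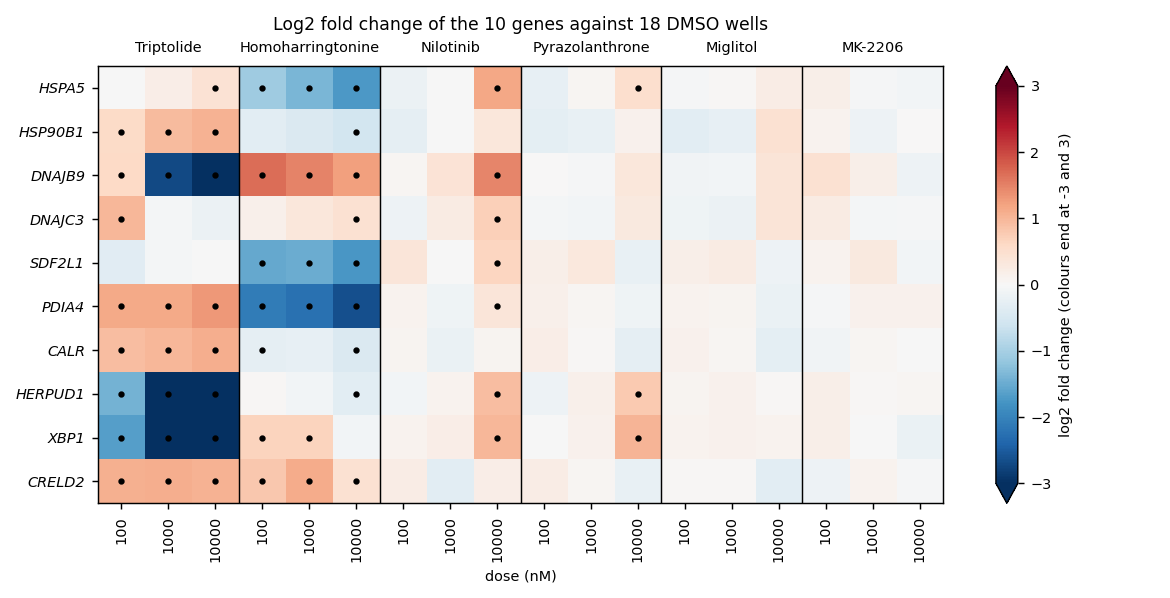
Log2 fold change of each of the 10 genes (rows) against 18 DMSO wells, for 6 compounds at 3 doses in nM (columns); red is higher, blue is lower, colours end at -3 and 3, and a dot marks an adjusted p under 0.05. Triptolide and homoharringtonine have dots at each dose, nilotinib and pyrazolanthrone at 10000 nM only, and miglitol and MK-2206 have none.

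Nilotinib at 10000 nM raised most of the group. In total 7 of the 10 genes were called higher (HSPA5, DNAJB9, DNAJC3, SDF2L1, PDIA4, HERPUD1 and XBP1), where 7.98% of all genes tested were called higher, and none was called lower, where 6.40% were. All 10 fold changes were above 0, from 0.08 for CALR to 1.47 for DNAJB9, with a median of 0.68 against 0.01 over all genes. HSPA5 and DNAJB9 were also past a log2 fold change of 1, as were 2.42% of all genes in that direction.

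HSPA5 was at 2019, 1915 and 2031 CPM in the 3 nilotinib wells, and at 559, 842 and 1194 CPM in the lowest, median and highest DMSO well. All 3 wells lay above every DMSO well. The log2 fold change was 1.17 ± 0.14 (2.24-fold, adjusted p = 1.5e-06). DNAJB9, the co-chaperone that hands misfolded protein to HSPA5, was at 19.4, 15.9 and 10.1 CPM, against 3.50 to 10.1 CPM in the DMSO wells. The lowest nilotinib well stood just above the highest DMSO well, and the log2 fold change was 1.47 ± 0.19 (adjusted p = 7.08e-06).

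XBP1 was at 165, 159 and 162 CPM with 10000 nM nilotinib, against 62.0 to 98.0 CPM in the DMSO wells, a log2 fold change of 0.996 ± 0.098 (1.99-fold, adjusted p = 6.95e-08). HERPUD1 was at 146, 143 and 142 CPM against 65.1 to 91.1 CPM (0.93 ± 0.09, adjusted p = 3.7e-08). In both, the treated wells were close together and clear of the DMSO wells. DNAJC3, which also inhibits PERK, had a log2 fold change of 0.72 ± 0.15 and SDF2L1 of 0.63 ± 0.12; the wells of SDF2L1 (70.7, 77.9 and 79.8 CPM) lay above every DMSO well and those of DNAJC3 (63.9, 56.3 and 47.0 CPM) overlapped them. PDIA4 was the smallest call at 0.35 ± 0.10 (adjusted p = 0.0175), although its wells (171, 185 and 189 CPM) lay above every DMSO well, and its call was lost without nilotinib replicate 2 (0.34) or 3 (0.30). HSP90B1, CALR and CRELD2 overlapped the DMSO wells, with log2 fold changes of 0.33, 0.08 and 0.19.

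The mitochondrially encoded mRNAs took 0.350% to 0.387% of counts in the 3 nilotinib wells at 10000 nM and 0.138% to 0.367% in the DMSO wells. When the libraries were scaled to the sum of these 13 mRNAs, the median of all genes shifted by -0.69. Of the 7 rises 2 were still called, HSPA5 (0.50) and DNAJB9 (0.83). Such a shift was not particular to nilotinib: it was -0.48 with miglitol at 10000 nM, where no gene was called with TMM, and -0.27 with MK-2206 at 10000 nM. At 100 and 1000 nM nilotinib none of the 10 genes was called with edgeR, where 5.5% and 2.51% of all genes were called higher and 3.58% and 1.44% lower. At an unadjusted p under 0.05 there was 1 rise at each of those doses, SDF2L1 and XBP1, and DESeq2 called 0. Over the 3 doses, HSPA5 rose by 0.66 ± 0.13 on the log2 scale per 10-fold dose, HERPUD1 by 0.50 ± 0.08 and XBP1 by 0.44 ± 0.08 (adjusted p = 0.0262, 0.0173 and 0.0262), so 3 of 10 rose with dose, as did 2.11% of all genes, and none fell, as 0.984% did. None of these 3 trends was called without replicate 2 or without replicate 3.

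Pyrazolanthrone at 10000 nM raised fewer of the genes. XBP1, HERPUD1 and HSPA5 were called higher, 3 of 10 where 3.35% of all genes tested were, and none was called lower (4.30% of all genes). The median over the 10 genes was 0.21, against -0.003 over all genes. XBP1 was at 166, 172 and 167 CPM, above every DMSO well, with a log2 fold change of 1.01 ± 0.10 (2.02-fold, adjusted p = 3.2e-07). HERPUD1 was at 128, 134 and 137 CPM, also above every DMSO well (0.78 ± 0.09, adjusted p = 3.03e-06). HSPA5 was at 1211, 1350 and 1288 CPM, above every DMSO well, where the highest was at 1194 CPM (0.49 ± 0.15, adjusted p = 0.0383). The HSPA5 call was lost without any 1 of the 3 wells (0.47 to 0.54) and with the GC slope of the library, described below, in the fit (0.32).

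**Figure D2:**
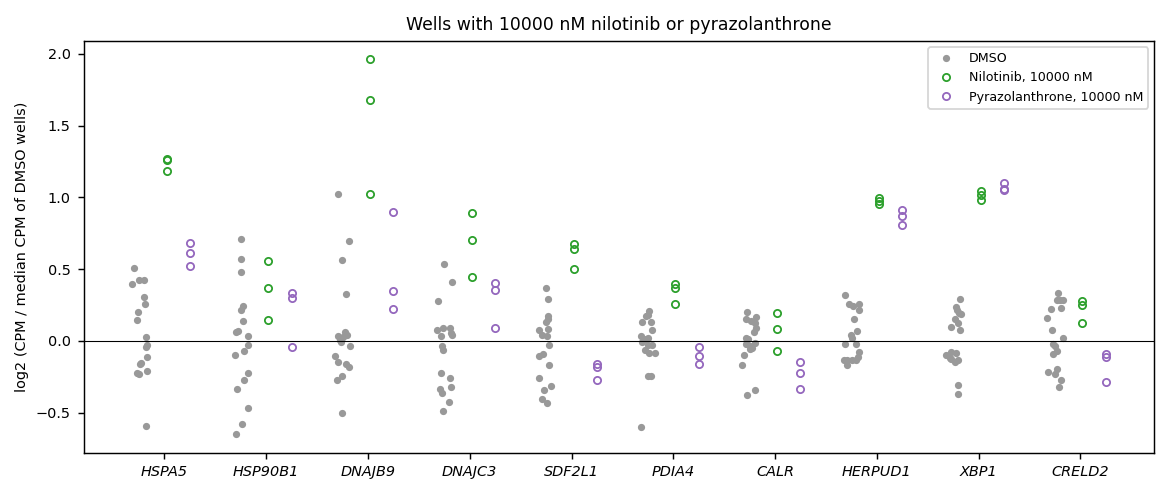
Level of each of the 10 genes in single wells, as log2 of CPM over the median CPM of the DMSO wells; grey points are 18 DMSO wells, green and purple circles the 3 wells each of nilotinib and pyrazolanthrone at 10000 nM. HERPUD1 and XBP1 lie above all DMSO wells with both compounds, HSPA5 lies highest with nilotinib, and SDF2L1 lies above the DMSO wells with nilotinib and among them with pyrazolanthrone.

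The other genes overlapped the DMSO wells with pyrazolanthrone: DNAJB9, DNAJC3 and HSP90B1 had log2 fold changes of 0.35, 0.28 and 0.14, and SDF2L1, PDIA4, CALR and CRELD2 of -0.22, -0.13, -0.26 and -0.23. Scaled to the mitochondrially encoded mRNAs (0.278% to 0.321% of counts in these wells), 0 of the 3 rises were called, with XBP1 at 0.66 and HERPUD1 at 0.43. At 100 nM 3.2% of all genes were called higher and 1.56% lower, and at 1000 nM no gene was called with edgeR; none of the 10 genes was called at either dose by edgeR or DESeq2, and 1 rose at each dose at an unadjusted p under 0.05, CALR and SDF2L1. Over the doses XBP1 (0.50 ± 0.08 on the log2 scale per 10-fold dose), HERPUD1 (0.46 ± 0.07) and HSPA5 (0.37 ± 0.07) rose, 3 of 10 where 8.89% of all genes did, and CALR fell by 0.25 ± 0.06, where 9.74% of all genes fell. Neither the rises nor the CALR fall were called without replicate 2, without replicate 3 or with fragment length in the fit, and with the GC slope 1 of the 3 rises was called and CALR was not. Nilotinib and pyrazolanthrone at 10000 nM were not tested against each other.

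Triptolide split the 10 genes. At 10000 nM, PDIA4, CALR, HSP90B1, CRELD2 and HSPA5 were called higher relative to all other mRNA, 5 of 10 where 32.2% of all genes were, and DNAJB9, XBP1 and HERPUD1 were called lower, 3 of 10 where 39.7% were. DNAJC3 and SDF2L1 were not called (-0.19 and 0.00). The size of the falls reached -5.42 and that of the rises 1.30, with a median over the 10 of 0.21 against -0.17 over all genes.

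The direction of the rises depended on the scaling. TMM and library size give levels relative to the mRNA that is left, and the mitochondrially encoded mRNAs rose from 0.138% to 0.367% of counts in the DMSO wells to 1.01% to 1.15% with 10000 nM triptolide. Scaled to these mRNAs, the median of all genes shifted by -2.75, to -2.92, and all 10 genes were called lower. PDIA4 was at -1.50, HSP90B1 at -1.67, CALR at -1.71, CRELD2 at -1.78 and HSPA5 at -2.32, each a smaller fall than that median. The count of 10 falls is therefore not a trait of these genes. With library sizes alone, the median shifted by -0.53 and HSPA5 was at -0.10. The statements on triptolide that follow are for TMM scaling and give changes relative to the other mRNAs.

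XBP1 was at 62.0 to 98.0 CPM in the DMSO wells, at 28.3, 24.1 and 22.9 CPM with 100 nM triptolide, at 3.09, 1.05 and 2.57 CPM with 1000 nM and at 2.06, 2.03 and 1.86 CPM with 10000 nM. Each treated well lay below every DMSO well, and the steps from DMSO to 100 nM and from 100 to 1000 nM were free of overlap. The 24.1 CPM at 100 nM stands in the library with 70767 counts, where XBP1 was under the limit of 3 counts, so that well does not place the level. The log2 fold change at 10000 nM was -5.40 ± 0.17 (adjusted p = 9.41e-19). The 10000 nM wells still held 46.8 to 56.2 XBP1 counts each, so the level was above the limit of 3 counts.

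HERPUD1 went the same way, from 65.1 to 91.1 CPM in the DMSO wells to 31.8, 0 and 26.3 CPM at 100 nM, 6.69, 5.12 and 8.44 CPM at 1000 nM and 6.56, 6.28 and 5.02 CPM at 10000 nM. The 0 stands in the library with 70767 counts. The log2 fold change at 10000 nM was -3.71 ± 0.14 (adjusted p = 3.72e-17).

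DNAJB9 differed between doses. At 100 nM it was at 6.85, 12.0 and 9.58 CPM, overlapping the DMSO wells, and was called higher (0.60 ± 0.25, adjusted p = 0.0425). That call was lost without the libraries under 10 mil counts (0.59). The 12.0 CPM stands in the library with 70767 counts, where DNAJB9 was under the limit of 3 counts. At 1000 nM it was at 0.515, 0.349 and 1.24 CPM and at 10000 nM at 0.0791, 0.182 and 0.119 CPM, below every DMSO well. The log2 fold changes were -2.70 ± 0.33 and -5.42 ± 0.38 (adjusted p = 1.01e-07 and 3.75e-12). The 10000 nM wells held 2, 5.02 and 3 expected counts of DNAJB9, close to the limit of 3 counts.

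**Figure D3:**
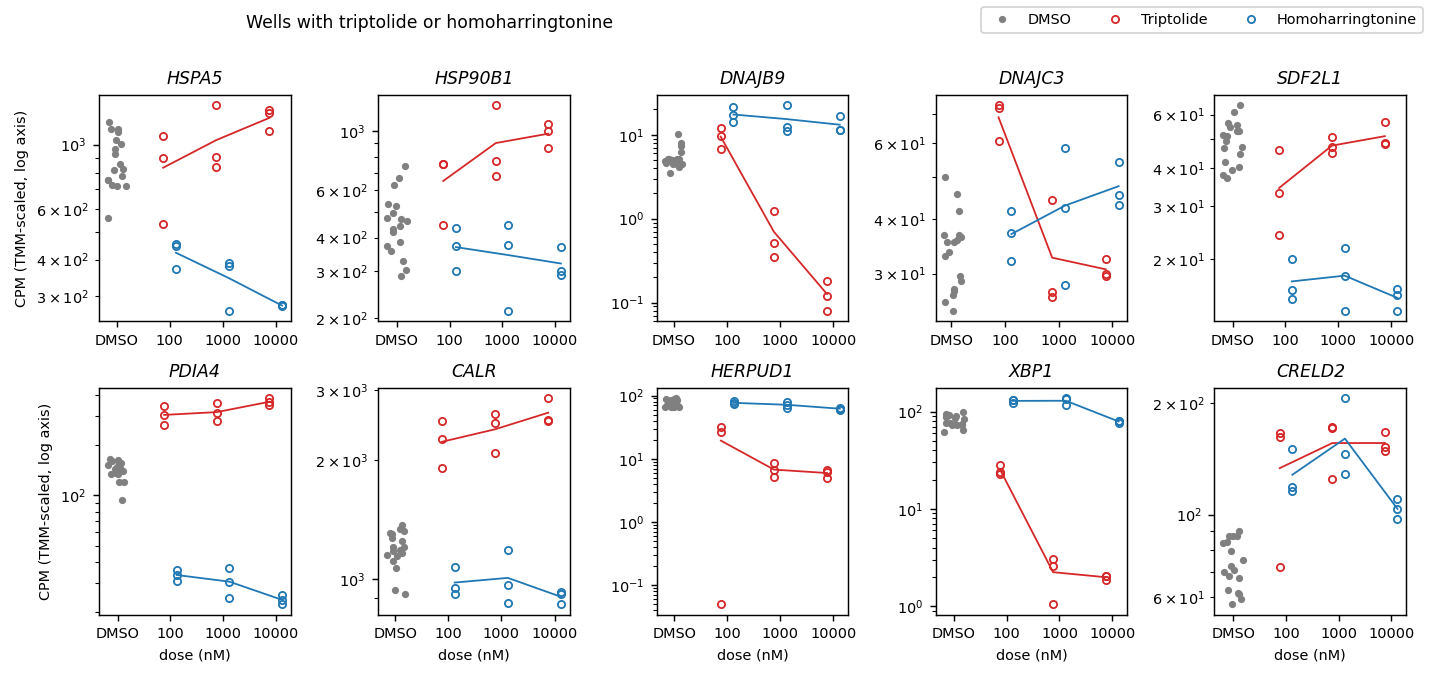
CPM of each of the 10 genes on a log axis, in 18 DMSO wells (grey) and in the 3 wells of each dose of triptolide (red) and homoharringtonine (blue); lines join the means of a compound, and the HERPUD1 well at 0 is drawn at 0.05 CPM. XBP1, HERPUD1 and DNAJB9 drop with triptolide at 1000 and 10000 nM, and PDIA4 lies above the DMSO wells with triptolide and below them with homoharringtonine.

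PDIA4 was at 342, 265 and 305 CPM with 100 nM triptolide and at 363, 348 and 383 CPM with 10000 nM, against 94.6 to 165 CPM in the DMSO wells. All 9 triptolide wells lay above every DMSO well, and the log2 fold change was 1.30 ± 0.10 at 10000 nM (2.47-fold, adjusted p = 9.81e-12). CALR was at 2520, 2511 and 2864 CPM at 10000 nM against 920 to 1374 CPM (1.09 ± 0.09, adjusted p = 1.57e-10), and its 9 triptolide wells also lay above every DMSO well. CRELD2 (1.04 ± 0.12) and HSP90B1 (1.04 ± 0.18) lay above every DMSO well at 10000 nM. HSPA5, at 1282, 1319 and 1110 CPM, overlapped the DMSO wells and had the smallest rise (0.43 ± 0.15, adjusted p = 0.0137), a call that was lost without replicate 1 (0.40) or replicate 2 (0.37).

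DNAJC3 was at 60.7, 72.3 and 73.4 CPM with 100 nM triptolide, above the 24.6 to 50.2 CPM of the DMSO wells (1.01 ± 0.17, adjusted p = 2.54e-05), and fell back to 27.1, 26.5 and 44.3 CPM at 1000 nM and 32.5, 29.6 and 29.99 CPM at 10000 nM. At 100 nM, 6 of the 10 genes were called higher (HSP90B1, DNAJB9, DNAJC3, PDIA4, CALR and CRELD2) where 24.5% of all genes were, and HERPUD1 and XBP1 were called lower where 32.3% were. At 1000 nM, HSP90B1, PDIA4, CALR and CRELD2 were called higher, 4 of 10 where 28.8% of all genes were, and DNAJB9, HERPUD1 and XBP1 lower, 3 of 10 where 38.6% were. Scaled to the mitochondrially encoded mRNAs, 7 of 10 were called lower at 100 nM and 10 of 10 at 1000 nM. The median of all genes was then at -1.81 and -2.68, so these falls are not a trait of the 10 genes.

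Homoharringtonine lowered HSPA5, SDF2L1 and PDIA4 at each dose and raised DNAJB9 and CRELD2 at each dose. At 10000 nM 6 of 10 were called lower (HSPA5, HSP90B1, SDF2L1, PDIA4, CALR and HERPUD1) where 37.2% of all genes were, and 3 were called higher (DNAJB9, DNAJC3 and CRELD2) where 36.7% were. The median over the 10 was -0.37, against -0.05 over all genes. At 100 nM 4 were called lower (HSPA5, SDF2L1, PDIA4 and CALR, 32.3% of all genes) and 3 higher (DNAJB9, XBP1 and CRELD2, 31.1%). At 1000 nM 3 were called lower (HSPA5, SDF2L1 and PDIA4, 33.4%) and 3 higher (DNAJB9, XBP1 and CRELD2, 35.0%).

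PDIA4 had the largest fall of the 10. It was at 30.9, 33.4 and 35.8 CPM with 100 nM homoharringtonine, at 36.6, 30.4 and 24.4 CPM with 1000 nM and at 25.2, 23.6 and 22.3 CPM with 10000 nM. All 9 wells lay below every DMSO well, where the lowest was at 94.6 CPM. The log2 fold changes were -2.09 ± 0.13, -2.24 ± 0.15 and -2.63 ± 0.13 (adjusted p = 1.19e-12, 3.04e-12 and 4.49e-15).

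HSPA5 was at 452, 445 and 371 CPM with 100 nM homoharringtonine, at 265, 391 and 379 CPM with 1000 nM and at 278, 276 and 279 CPM with 10000 nM. All 9 wells lay below the lowest DMSO well, at 559 CPM, and the log2 fold changes were -1.06 ± 0.16, -1.37 ± 0.18 and -1.71 ± 0.18. SDF2L1 lay below every DMSO well in all 9 wells as well, at 15.9, 15.3 and 13.5 CPM with 10000 nM against 37.1 to 64.5 CPM (-1.76 ± 0.15, adjusted p = 1.97e-10). HSP90B1 (-0.56 ± 0.22) and CALR (-0.43 ± 0.10) fell less and overlapped the DMSO wells at 10000 nM; HERPUD1 (-0.32 ± 0.10) lay just below them, at 59.1 to 64.5 CPM.

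DNAJB9 was at 21.2, 16.96 and 14.04 CPM with 100 nM homoharringtonine, 11.04, 12.5 and 22.5 CPM with 1000 nM and 11.4, 11.4 and 16.6 CPM with 10000 nM. All 9 wells lay above the highest DMSO well, at 10.1 CPM, and the log2 fold changes were 1.68 ± 0.19, 1.48 ± 0.20 and 1.24 ± 0.19. CRELD2 also lay above every DMSO well in all 9 wells (0.81 ± 0.14, 1.12 ± 0.14 and 0.47 ± 0.13). XBP1 was at 132, 132 and 123 CPM with 100 nM and 116, 135 and 137 CPM with 1000 nM, above every DMSO well (0.68 ± 0.09 and 0.66 ± 0.10), and at 81.0, 77.0 and 79.6 CPM with 10000 nM, inside the DMSO range (-0.07 ± 0.11).

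The 3 homoharringtonine libraries at 10000 nM had GC slopes from -0.647 to -0.501, below every DMSO library (-0.437 to 0.310). The GC slope says how steeply a library's log2 levels, relative to the mean of the DMSO wells, change with the GC content of the transcripts, in steps of 10 percentage points and over 9664 genes. With this slope as a covariate, HSP90B1 was at -1.45 and XBP1 at -0.38, both called, CALR was at -0.10 and no longer called, DNAJB9 was at 0.52 and called, and DNAJC3 turned from 0.46 to -0.19 and stayed called. The slope of a treated library can also hold the response to the compound, and these 3 libraries lay outside the DMSO range. The fit with the slope therefore cannot separate library and compound. The part of the slope in the result was not tested further.

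Triptolide and homoharringtonine were compared directly at each dose, since one blocks transcription and the other translation. At 10000 nM all 10 genes differed: 6 were higher with triptolide (PDIA4, HSPA5, SDF2L1, HSP90B1, CALR and CRELD2) where 41.4% of all genes were, and 4 were lower (DNAJB9, XBP1, HERPUD1 and DNAJC3) where 47.0% were. PDIA4 had the largest difference in the first direction, 4.02 ± 0.08 on the log2 scale (adjusted p = 1.98e-11), and HSPA5 followed with 2.23 ± 0.08. DNAJB9 had the largest in the other direction, -6.58 ± 0.29, and XBP1 followed with -5.25 ± 0.10. At 1000 nM 5 were higher, HSPA5, HSP90B1, SDF2L1, PDIA4 and CALR (27.9% of all genes), and at 100 nM 6, the same 5 and DNAJC3 (29.7%). DNAJB9, HERPUD1 and XBP1 were lower at both doses, where 38.9% and 35.8% of all genes were. Scaled to the mitochondrially encoded mRNAs, PDIA4 was the 1 gene still higher with triptolide at each dose (1.73, 0.95 and 1.43 at 100, 1000 and 10000 nM).

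Over the triptolide doses, DNAJB9, XBP1, HERPUD1 and DNAJC3 fell, with slopes of -3.11 ± 0.27, -1.88 ± 0.27, -1.13 ± 0.20 and -0.63 ± 0.13 on the log2 scale per 10-fold dose, 4 of 10 where 17.9% of all genes fell with dose. Over the homoharringtonine doses, XBP1, HSPA5, PDIA4 and HERPUD1 fell, with slopes of -0.38 ± 0.08, -0.34 ± 0.08, -0.28 ± 0.08 and -0.19 ± 0.06, 4 of 10 where 22.9% did. None of the 10 rose with dose, where 6.95% of all genes did with triptolide and 21.1% with homoharringtonine, and the count was also 0 with DESeq2 and at an unadjusted p under 0.05. Without homoharringtonine replicate 2, 0 of its 4 falls were called. The difference between the slopes, tested as an interaction, was called for 6 of 10. HSPA5 (0.57 ± 0.14) and PDIA4 (0.36 ± 0.11) had the higher slope with triptolide, as did 19% of all genes. DNAJB9 (-2.85 ± 0.28), XBP1 (-1.48 ± 0.29), HERPUD1 (-0.92 ± 0.21) and DNAJC3 (-0.73 ± 0.18) had the lower slope, as did 21.4%.

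With miglitol and MK-2206 none of the 10 genes was called at any dose by edgeR or DESeq2. With miglitol 0.00% of all genes were called at any dose, and with MK-2206 0.0594%, 1.2% and 2.26% were called higher and 0.0054%, 0.318% and 0.818% lower at 100, 1000 and 10000 nM. At an unadjusted p under 0.05, the count among the 10 was 0 at each dose except for miglitol at 10000 nM, where HSP90B1 (0.45 ± 0.20) and DNAJC3 (0.38 ± 0.16) were higher and CALR (-0.28 ± 0.10) and CRELD2 (-0.30 ± 0.13) lower. HSPA5 was at 1070, 1025 and 1104 CPM with 10000 nM miglitol and at 679, 1039 and 801 CPM with 10000 nM MK-2206, inside the DMSO range. Over the miglitol doses HSP90B1 (0.39 ± 0.10) and DNAJC3 (0.26 ± 0.08) rose, where 12.7% of all genes did, and CALR fell by 0.21 ± 0.06, where 3.21% did; each of these calls was lost without any 1 replicate number and with the GC slope in the fit. Over the MK-2206 doses none was called by edgeR or DESeq2, where 0.028% of all genes rose and 0.00% fell, and DNAJB9 and XBP1 were lower at an unadjusted p under 0.05.

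In the order of the 19 group means, HSPA5 was highest with nilotinib at 10000 nM (1988 ± 64.1 CPM, SD, n = 3), followed by pyrazolanthrone (1283 ± 70.0) and triptolide (1237 ± 111) at 10000 nM, and lowest with homoharringtonine at 10000 nM (278 ± 1.74). The first did not overlap the second, the second and the third overlapped, and the 3 homoharringtonine groups lay below all others. XBP1 was highest with pyrazolanthrone at 10000 nM (169 ± 3.26 CPM), nilotinib at 10000 nM (162 ± 3.36) and homoharringtonine at 1000 nM (129 ± 11.9) and 100 nM (129 ± 5.15). Its 3 triptolide groups were the lowest, and the 11 groups from nilotinib at 1000 nM to homoharringtonine at 10000 nM each overlapped the next. HERPUD1 was highest with nilotinib (144 ± 2.08 CPM) and pyrazolanthrone (133 ± 4.76) at 10000 nM. PDIA4 had the 3 triptolide groups at the top and the 3 homoharringtonine groups at the bottom, both apart from the rest.

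The genes did not form a single pattern over the 19 groups. The Pearson correlation of each gene with the mean of the standardised values of all 10 was 0.84 for HSPA5, 0.66 for PDIA4, 0.62 for SDF2L1, 0.55 for HSP90B1, 0.45 for DNAJC3 and 0.35 for CALR, and -0.03 for DNAJB9, -0.04 for XBP1, -0.06 for HERPUD1 and -0.18 for CRELD2. Each gene is part of that mean. Among other protein-coding genes with a mean of at least 10 CPM, the 5 most like the mean of the 10 were CREB3L2 (r = 0.84), LARP6 (0.79), TNFAIP2 (0.79), EIF4EBP2 (0.79) and SEL1L (0.78). These are descriptions over 19 groups that share libraries of unequal depth.

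The other genes of the pathway were taken from 6 lists with 72 genes, of which 71 were tested. At 10000 nM, 45 were called higher and 15 lower with triptolide, 20 higher and 33 lower with homoharringtonine, 29 higher and 1 lower with nilotinib, and 11 higher and 1 lower with pyrazolanthrone, beside the shares of all genes given above. With miglitol 0 were called in either direction, and with MK-2206 1 in each.

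**Figure D4:**
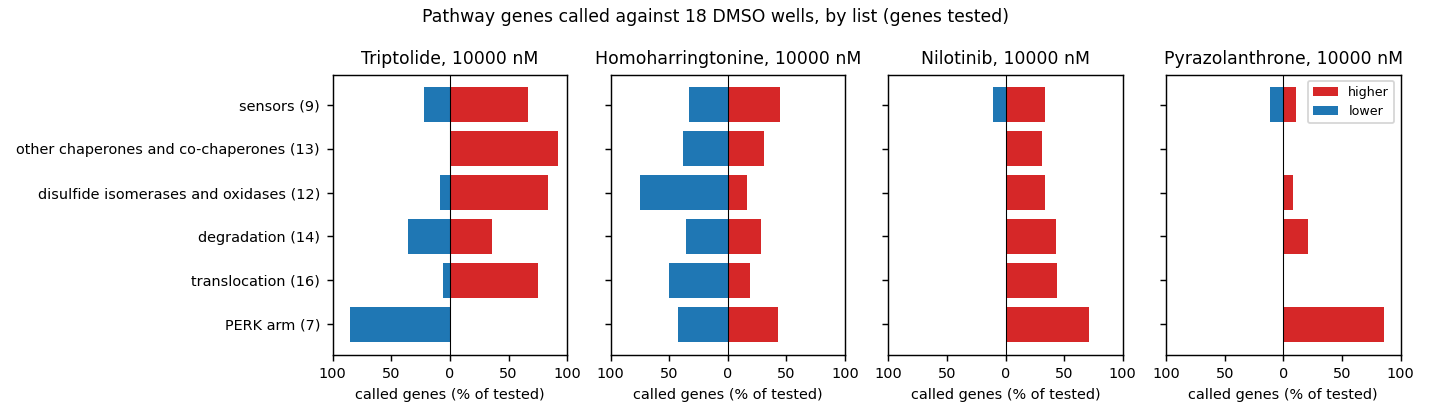
Share of the tested genes of each of 6 pathway lists called higher (red, to the right) or lower (blue, to the left) at 10000 nM of 4 compounds; the number of genes tested stands beside each list. With triptolide the PERK arm points to the left and the other chaperones to the right, and with nilotinib and pyrazolanthrone nearly all calls point to the right.

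With nilotinib at 10000 nM the PERK arm list (ATF4, CHOP and their targets) had 5 of 7 higher and a median log2 fold change of 1.03. TRIB3, a pseudokinase induced by ATF4 (1.16), and ASNS, asparagine synthetase (1.11), were at the top. The name is that of the list only, and the activity of PERK was not measured. Of the translocation list 7 of 16 were higher, led by SSR3 (0.96) and SRPRB (0.81), and of the degradation list 6 of 14, led by EDEM1 (0.66) and SELENOS (0.66). Of the other chaperones 4 of 13 were higher, led by MANF (0.45) and HYOU1 (0.41), and of the disulfide list 4 of 12, led by ERO1B (0.84) and PDIA3 (0.59). Among the sensors 3 of 9 were higher, CREB3L2 (0.99) and ERN1 (0.78) among them, and CREB3L1 was lower (-0.84).

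With pyrazolanthrone at 10000 nM the calls were concentrated in the PERK arm list, 6 of 7, with a median of 0.95. ASNS (1.66) and CHAC1 (1.25), an enzyme that degrades glutathione, led that list. Of the degradation list 3 of 14 were higher, HERPUD2 (0.47) and EDEM1 (0.35) the most, and of the disulfide list TMX4 (0.41). Of the other chaperones and the translocation list 0 of 13 and 0 of 16 were called. ERN1 was higher (0.31) and CREB3L1 lower (-0.69).

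With triptolide at 10000 nM 12 of 13 other chaperones were higher under TMM scaling, led by CRELD1 (1.23) and CANX, the membrane-bound partner of CALR (1.15), as were 10 of 12 of the disulfide list, led by P4HB (1.37) and PDIA6 (1.35), with TXNDC11 lower (-2.07). Of the translocation list 12 of 16 were higher, SSR4 (1.43) and SEC61G (1.21) the most, and SEC62 was lower (-0.66). The PERK arm had 6 of 7 lower with a median of -4.44, CHAC1 (-7.83) and SESN2 (-6.41) the most. Sensors and degradation factors went both ways: ATF6B (1.66) and CREB3L1 (1.11) were higher and EIF2AK3 (-2.85) and ERN1 (-1.66) lower, and OS9 (1.16) was higher and SYVN1 (-2.66) and HERPUD2 (-1.96) lower.

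With homoharringtonine at 10000 nM 9 of 12 of the disulfide list were lower, PDIA5 (-2.72) and ERO1A (-1.43) the most, and ERO1B (4.94) and ERP44 (0.58) were higher. Of the translocation list 8 of 16 were lower, SPCS3 (-2.51) and SEC61A1 (-1.76) the most, and SEC62 (1.005) and SEC61G (0.69) led the 3 that were higher. The other chaperones had 4 higher, led by DNAJC25 (2.96) and DNAJC1 (1.23), and 5 lower, led by HYOU1 (-1.29) and CANX (-0.86). ERN1, the kinase that splices XBP1 mRNA, was 397 ± 17.3 CPM (SD, n = 3) against 26.6 ± 3.64 CPM (SD, n = 18) in the DMSO wells, a log2 fold change of 3.90 ± 0.07. ATF6 was also higher (1.43), and CREB3L1 (-1.96) and MBTPS1, the protease that cuts ATF6 (-1.23), were lower. In the PERK arm PPP1R15A (4.16) and DDIT3 (2.86) were higher and CHAC1 (-3.28) and TRIB3 (-2.53) lower, and in the degradation list FAF2 (0.65) and SELENOS (0.62) were higher and EDEM3 (-1.26) and EDEM2 (-0.80) lower.

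The spread of the genes between DMSO wells went with the GC slope and the fragment length of the library. Over 18 DMSO wells, HSP90B1 had r = -0.978 with the slope (rho = -0.957), DNAJC3 r = -0.946 (rho = -0.907) and CRELD2 r = 0.934 (rho = 0.946), each with a permutation p of 1e-05, the smallest that 100000 resamples can give, and 6.67e-05 after adjustment over 20 relations. CALR (r = 0.784, rho = 0.767), SDF2L1 (0.687, 0.657) and PDIA4 (0.625, 0.841) were also higher in wells with a higher slope, and DNAJB9 (-0.742, -0.684), HSPA5 (-0.682, -0.792), XBP1 (-0.656, -0.645) and HERPUD1 (-0.523, -0.583) lower, with adjusted permutation p from 0.00055 to 0.0325. Without the 2 wells farthest from the median slope, r was -0.963 for HSP90B1, -0.906 for DNAJC3 and 0.912 for CRELD2. The other 10 relations were with fragment length, and 7 had an adjusted permutation p under 0.05 for r: HSP90B1 (r = 0.759, rho = 0.783), HSPA5 (0.658, 0.802), DNAJC3 (0.625, 0.608), HERPUD1 (0.577, 0.705) and DNAJB9 (0.575, 0.680) were higher in libraries of longer fragments, and CALR (-0.654, -0.649) and CRELD2 (-0.549, -0.659) lower, with adjusted permutation p of r from 0.00128 to 0.0232. Without the 2 wells farthest from the median fragment length, r was 0.641 to 0.855 for the first 5 and -0.599 and -0.859 for CALR and CRELD2. XBP1 (r = 0.457, rho = 0.626) and PDIA4 (r = -0.34, rho = -0.531) passed by rank only. Their adjusted permutation p of rho was 0.00774 and 0.0255. SDF2L1 passed by neither (r = -0.261, rho = -0.236). The transcripts of DNAJC3, HSP90B1 and DNAJB9 had the lowest GC content of the 10 (40.6% to 42.5%) and those of CRELD2 and SDF2L1 the highest (61.0% and 66.0%). The slope was computed from the same libraries, these genes included.

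**Figure D5:**
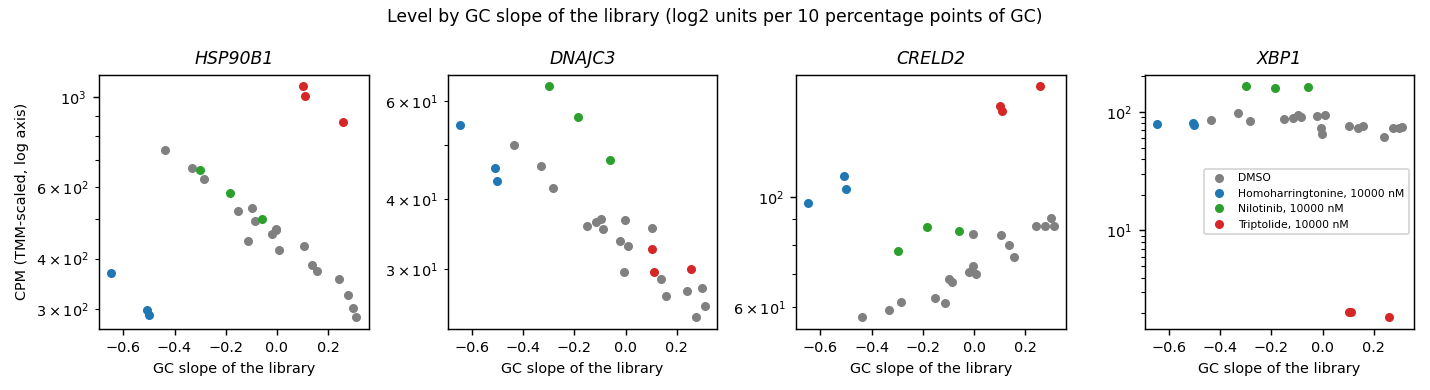
CPM on a log axis against the GC slope of the library (log2 units per 10 percentage points of GC) for HSP90B1, DNAJC3, CRELD2 and XBP1; grey points are 18 DMSO wells and coloured points the 3 wells each of homoharringtonine, nilotinib and triptolide at 10000 nM. HSP90B1 and DNAJC3 fall and CRELD2 rises along the DMSO wells, and the homoharringtonine wells lie to the left of all of them.

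CRELD2 overlaps ALG12, which is on the opposite strand and had 28.2% as many counts, and the strand setting of the counting is not given in the sources used here. The value of CRELD2 may therefore hold reads of ALG12. The named pseudogenes of HSPA5, HSP90B1 and XBP1 each had at most 0.118% as many counts as their parent gene.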

How the data were processed

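Per the labels, RNA was extracted with the RNeasy 96 kit and libraries were made with the stranded TruSeq mRNA kit after poly(A) selection. The authors ran a standard RSEM workflow, and the submitters' processing notes name GRCh38, RSEM, HTSeq and DESeq2; the study's methods mention an Ensembl reference for counting detected genes, and versions and the annotation release are not given in the sources used here. Each deposited file gave expected counts, RSEM's estimate of reads per gene, which are not normalized, and TPM and FPKM, which the authors' RSEM run scaled to gene length and library total. The deposited FPKM values were not used. The limit of 3 counts covers counting error only.

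After rounding of the expected counts, the tests were run in edgeR 4.0.16 in R 4.3.3 (TMM, filterByExpr with a smallest count of 10, quasi-likelihood test, Benjamini-Hochberg). Each of 18 comparisons used the 3 wells of a dose and the 18 DMSO wells; trends used the 9 wells of a compound and log10 dose, and the difference between trends the 18 wells of triptolide and homoharringtonine. Groups and doses came from the labels, and the study's results give the same doses for triptolide and homoharringtonine. The study's methods write the middle dose differently, which would bear on values at that dose and on the trends. Alternatives were library sizes only, scaling to 13 mitochondrially encoded mRNAs, other filters, DESeq2 1.42.0, leaving out wells, a replicate block, and, chosen after seeing the data, the GC slope or the fragment length of the library as a covariate. The fits were also run on simulated data, in which every library held at least 10 mil counts and no GC effect was put in. That run does not cover the shallow libraries or the GC slopes of these data. The mean correlation of deviations of same-numbered wells was -0.031 between compounds and DMSO and 0.022 between doses, so on average the replicate numbers did not pair the wells. Single pairs of same-numbered wells ranged from -0.477 to 0.474 and from -0.682 to 0.626. Replicate 1 had the lowest GC slope in most groups of pyrazolanthrone, nilotinib and miglitol. Whether wells with the same number shared a batch was not tested.

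The 10 genes and the pathway lists were chosen with earlier results of these data known. The 10 genes are named where they were called or their values described; of each pathway list, up to 2 called genes in each direction, by size of the change, are named, except 1 that is not reported here. Promoter windows came from RefSeq, all 10 genes matching, and exons and transcript GC content from GENCODE 44. Correlations used scipy 1.17.1.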

Additional observations from a re-analysis of the deposited data

Results flagged for a closer look

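The dose slopes of 6 of the 10 genes differed between triptolide and homoharringtonine in the test of the difference itself, in log2 units per 10-fold dose, triptolide minus homoharringtonine: 0.57 for HSPA5, -2.85 for DNAJB9, -0.73 for DNAJC3, 0.36 for PDIA4, -0.92 for HERPUD1 and -1.48 for XBP1 (edgeR quasi-likelihood test, adjusted p from 4.4e-07 to 0.0115). Such differences were also common among all genes tested, with the shares given above. The part of the 10 genes with a higher slope was close to the share of all genes with a higher slope. The part with a lower slope was larger than the share of all genes with a lower slope, and whether it exceeds that share beyond chance was not tested. The libraries under 10 mil counts among these wells were both triptolide libraries, at 100 and 1000 nM.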

How the results depend on the processing

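The calls of single genes against DMSO changed most with the scaling: of 180 values, 18 that were called before or after the change of setting changed sign when libraries were scaled to mitochondrially encoded mRNAs, 1 with library sizes only, 1 with at least 10 counts in every well and 1 with the GC slope, and 0 with DESeq2, no filter, fragment length, the replicate block or without libraries under 10 mil counts.

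Scaled to mitochondrially encoded mRNAs, triptolide turned HSP90B1, DNAJB9, DNAJC3, PDIA4, CALR and CRELD2 to -0.93, -1.02, -0.56, -0.44, -0.61 and -0.65 at 100 nM, HSPA5, HSP90B1, PDIA4, CALR and CRELD2 to -2.25, -1.47, -1.32, -1.45 and -1.38 at 1000 nM and to -2.32, -1.67, -1.50, -1.71 and -1.78 at 10000 nM, and nilotinib at 10000 nM turned SDF2L1 to -0.11 and PDIA4 to -0.37. HSP90B1 at 100 nM triptolide was -0.12 with at least 10 counts in every well, HSPA5 at 10000 nM triptolide -0.10 with library sizes only, and DNAJC3 at 10000 nM homoharringtonine -0.19 with the GC slope; the cause was not tested.

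Scaling to mitochondrially encoded mRNAs gave 0 rises with triptolide at each dose, 7, 10 and 10 falls at 100, 1000 and 10000 nM, 1 rise with homoharringtonine at 10000 nM, 0 with pyrazolanthrone and 2 with nilotinib at 10000 nM; 1 gene higher and 6, 9 and 9 lower between triptolide and homoharringtonine at the 3 doses; 10 falls with dose for triptolide, 2 for homoharringtonine, 0 rises and 2 falls each for pyrazolanthrone and nilotinib, 0 rises and 6 falls for miglitol; and 0 higher slopes in the difference. Library sizes only gave 5 falls with triptolide at 1000 and at 10000 nM, 6 with homoharringtonine at 1000 nM, 2 falls with dose for homoharringtonine and 1 higher slope. With at least 10 counts in every well, 4 of the 10 genes were left at 100 nM triptolide, in its trend and in the difference. At 1000 nM 8 were left. The counts were 2 rises and 1 fall at 100 nM and 1 fall at 1000 nM. Against homoharringtonine they were 3 higher and 0 lower at 100 nM and 1 lower at 1000 nM. There were 0 falls in the trend and 0 higher and 0 lower slopes. This filter removed DNAJB9, HERPUD1 and XBP1 wherever the library with 70767 counts was used, so their falls could not be called there. The cause of the other changes was not tested. No filter gave 1 higher slope. DESeq2 gave 2 falls with dose for pyrazolanthrone, 2 for miglitol, 5 rises for nilotinib and 1 higher slope. The triptolide counts at mitochondrial scaling stand beside falls in the median of all genes, given above. The other counts in this paragraph are given without the share of all genes called. They show only how the calls moved with the setting.

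Also requiring a log2 fold change past 1 left 3 and 2 rises with triptolide at 100 and 1000 nM, beside 11.4% and 13.9% of all genes. Homoharringtonine kept 1 rise at 100 and at 10000 nM (15.6% and 23.6% of all genes) and 3 falls at 10000 nM (23.4%). At 10000 nM pyrazolanthrone kept 1 rise (0.595% of all genes) and nilotinib 2 (2.42%). Of the alternatives chosen after seeing the data, the GC slope gave 2 falls with nilotinib at 1000 nM, 1 rise and 0 falls with dose for pyrazolanthrone, 6 rises for nilotinib and 0 of either for miglitol, and fragment length gave 5 falls with homoharringtonine at 1000 nM, 1 with pyrazolanthrone at 10000 nM, 2 falls with dose for homoharringtonine, 0 of either for pyrazolanthrone and miglitol and 5 rises for nilotinib.

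Leaving out each replicate number of a compound gave 0 to 2 rises with nilotinib at 100 nM, 0 to 4 falls with dose for homoharringtonine, 0 to 3 rises and 0 to 2 falls for pyrazolanthrone, 0 to 3 rises for nilotinib, 0 and 0 for miglitol, and 1 to 2 higher slopes. The 2 rises with nilotinib came without replicate 1, and the 0 falls for homoharringtonine without replicate 2.

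With the replicate number as a block, which uses DMSO replicates 1 to 3 only, miglitol at 10000 nM had 4 rises and 3 falls, pyrazolanthrone at 10000 nM 5 rises and 3 falls, and the trends 3 falls for pyrazolanthrone and 5 rises for nilotinib; the other counts stayed within 1.5 times. The labels give these wells a shared number and nothing more. Depth limits DNAJB9, HERPUD1, XBP1 and SDF2L1 in the library with 70767 counts.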
